A study of Mus musculus with 126 samples.

Results

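Tight junctions are belts of strand-forming membrane proteins that seal the space between neighbouring epithelial cells. Claudins build the strands and set which ions pass, occludin and its MARVEL-domain relatives and the junctional adhesion molecules join them in the membrane, and zonula occludens scaffolds tie the strands to the actin cytoskeleton. In the prostate, the secretory epithelium carries such junctions, and several claudins and occludin are known markers of epithelial differentiation. The genes described here are 10 of this apparatus, namely the claudins Cldn3, Cldn4, Cldn7, Cldn8 and Cldn10, the MARVEL proteins Ocln and Marveld2, the adhesion molecule F11r, and the scaffolds Tjp1 and Tjp3. They were taken by gene symbol from the array annotation, and each had exactly 1 probe set. All 10 were among the 23507 named probe sets that passed the filter on low values and were tested.

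The tumors came from 126 transgene-positive F2 males of a TRAMP × NOD/ShiLtJ cross, with 1 array per male, and were taken at 30 weeks or at an earlier humane endpoint. All males carried the TRAMP transgene, in which a probasin promoter drives SV40 T antigen in prostate epithelium, so no tumor here is free of it. TRAMP tumors of this kind are often poorly differentiated with neuroendocrine features, which limits them as a model of glandular cancer. By the labels, 87 males had metastasis and 39 had none. This metastasis was read as spread to distant organs and is called distant metastasis below. Tumor weight at necropsy, called burden, had a median of 4.54 g and ran from 0.1 to 14 g. In 15 males, 9 with and 6 without distant metastasis, the tumor weighed under 1 g. The paper reports that larger primary tumors went with a younger age at death and with a lower seminal vesicle tumor burden. The fits below hold no term for either, and their part in any relation with burden was not tested. Levels are log2 values after robust multi-array averaging (RMA) on 1 Affymetrix platform, so they are compared between tumors for 1 gene and never between genes. Array medians lay between 5.84 and 6.05, no 2 arrays were identical, and the array of mouse N1202 stood apart with a mean correlation to the others of 0.880, against 0.915 for the next lowest and a median of 0.970. Tumor RNA is a mixture, so fewer epithelial cells and less RNA per epithelial cell cannot be told apart in any value below.

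The promoters of the claudin, occludin and scaffold genes are shown first, because CAGGTG, an E-box that repressors of the Snail and Zeb families bind, is a known element in promoters of epithelial junction genes. RefSeq windows of 300 bases (250 before and 50 after the annotated start, build GRCm38.p6) matched 9 of the 10 genes, with 14 windows in all, and Cldn8 is named only. Each of the following windows is written 5′ to 3′ on the strand of its gene, with CAGGTG or its reverse complement CACCTG in capitals. They are Cldn4 (chr5:134946885-134947184, minus strand), Cldn3 (chr5:134985964-134986263, plus strand), the downstream window of Ocln (chr13:100552449-100552748, minus strand) and Tjp1 (chr7:65371195-65371494, minus strand).
Cldn4: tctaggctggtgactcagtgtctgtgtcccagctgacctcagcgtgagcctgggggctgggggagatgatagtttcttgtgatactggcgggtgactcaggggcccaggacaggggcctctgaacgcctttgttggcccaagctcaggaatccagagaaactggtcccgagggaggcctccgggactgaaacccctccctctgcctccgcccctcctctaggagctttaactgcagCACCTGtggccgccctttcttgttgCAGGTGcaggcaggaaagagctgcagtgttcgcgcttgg
Cldn3: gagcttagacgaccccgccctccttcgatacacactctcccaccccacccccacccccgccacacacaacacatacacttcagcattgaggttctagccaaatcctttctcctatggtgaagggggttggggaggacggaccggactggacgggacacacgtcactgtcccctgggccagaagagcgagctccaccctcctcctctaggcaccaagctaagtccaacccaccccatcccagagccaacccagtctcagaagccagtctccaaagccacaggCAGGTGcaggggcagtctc
Ocln: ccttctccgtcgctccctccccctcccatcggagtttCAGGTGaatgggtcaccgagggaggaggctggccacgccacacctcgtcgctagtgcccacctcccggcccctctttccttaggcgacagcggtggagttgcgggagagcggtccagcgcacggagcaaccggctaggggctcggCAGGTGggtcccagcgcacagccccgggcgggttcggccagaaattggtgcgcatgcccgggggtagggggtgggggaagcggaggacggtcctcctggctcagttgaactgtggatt
Tjp1: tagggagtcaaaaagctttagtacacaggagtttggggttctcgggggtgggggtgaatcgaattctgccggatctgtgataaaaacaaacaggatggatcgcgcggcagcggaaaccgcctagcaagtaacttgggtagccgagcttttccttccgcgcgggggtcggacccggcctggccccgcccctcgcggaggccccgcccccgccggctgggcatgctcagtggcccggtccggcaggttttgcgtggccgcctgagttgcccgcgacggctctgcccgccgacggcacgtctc

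Positions count from the annotated start, with 1 as the first transcribed base and negative numbers before it. Cldn4 had 2 matches, which began at −14 and 12, and Cldn3 had 1, at 32. The Ocln window had 2, at −213 and −68, the first of which lies also in the upstream Ocln window, since the windows of that gene overlap. Tjp1 had none in 300 bases that held 31 CpG dinucleotides, against 24 for the downstream Ocln window and 9 each for Cldn4 and Cldn3. The windows not printed held between 3 (Tjp3) and 27 (Cldn10) CpG dinucleotides. Over all members, at least 1 window held CAGGTG in 7 of the 9 genes (Cldn3, Cldn4, Cldn7, Ocln, Tjp3, Marveld2 and F11r), and none did in Cldn10 or Tjp1. Of all 32851 RefSeq windows searched on both strands in the same way, 20.2% held it, and of all genes 22.6%. The GC box GGGCGG was in at least 1 window of 8 of the 9 genes, all but Tjp3. It was in 35.7% of all windows and in 38.2% of all genes. AACCNGTT, bound by Grainyhead-like factors, was searched only as written, on the strand of the gene. On that strand it was in none of the 14 windows and in 1.09% of all windows. Its reverse complement is a different string and was not searched, so these values do not compare with those of CAGGTG and GGGCGG. Matches of different motifs were counted separately whether or not they overlapped, and a match describes letters, not a binding site. Cldn3 and Cldn4 lie next to each other on chromosome 5, and Ocln and Marveld2 on chromosome 13, with no protein-coding gene annotated between either pair.

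Of the 10 genes, 9 were lower in heavier tumors and Tjp1 was not called. The level of each gene was fitted against burden with limma over all 23507 probe sets, and a gene was called at a Benjamini-Hochberg adjusted p under 0.05. The same test called 36.7% of all probe sets, 16.4% as lower and 20.3% as higher. The median slope of the 10 genes was −0.153 log2 per g, beside 0.00356 log2 per g over all probe sets tested. Without the array of mouse N1202 the count of genes that fell was 9 as well, where 35.1% of all probe sets were called.

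Among the claudins, Cldn8, a barrier claudin that partners with Cldn4 in the mouse kidney collecting duct, had the steepest slope. Its level in the 15 tumors under 1 g had a lowest value of 5.04, a median of 9.85 and a highest of 11.78. In the 19 tumors of 8 g or more the lowest was 4.31, the median 5.70 and the highest 6.80. Thus 11 of the 15 lightest tumors lay above every one of the 19 heaviest, and the medians were 17.8-fold apart. Cldn8 fell by 0.33 log2 per g (95% interval −0.42 to −0.24, limma adjusted p = 2.4e-07). Cldn4, a receptor of Clostridium perfringens enterotoxin and a common claudin of simple epithelia, had values of 5.74, 9.81 and 11.00 (lowest, median, highest) under 1 g, 5.78, 6.97 and 11.19 from 1 to under 3 g, and 5.37, 5.98 and 7.12 from 8 g. Its slope was −0.27 log2 per g (−0.34 to −0.19, adjusted p = 2.4e-07), and 10 of the 15 lightest tumors lay above all of the heaviest.

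Cldn3, whose rat counterpart was first cloned from the regressing ventral prostate, had values of 6.38, 8.91 and 11.02 under 1 g and of 6.26, 6.77 and 7.71 from 8 g, a 4.41-fold gap between medians. Cldn7, which binds the adhesion molecule Epcam at the lateral membrane, had values of 4.65, 6.48 and 8.24 under 1 g and of 3.96, 4.55 and 5.09 from 8 g. For Cldn3, 10 of the 15 lightest tumors lay above every tumor of 8 g or more, and for Cldn7, 11 of the 15. Cldn3 fell by 0.13 ± 0.0269 log2 per g (SE, adjusted p = 5.98e-05), and Cldn7 by 0.16 ± 0.0251 (adjusted p = 1.09e-06). Cldn10, a claudin that forms ion pores, had the smallest called slope, −0.0719 ± 0.0188 log2 per g (SE, adjusted p = 0.00143). Its levels were 5.98, 7.39 and 8.66 under 1 g and 5.74, 6.19 and 7.23 from 8 g, with medians 2.30-fold apart, and 5 of the 85 tumors of 3 g or more still exceeded the median of the lightest ones.

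Ocln, the first integral protein known of the tight junction, had levels of 5.02, 8.68 and 10.18 under 1 g, against 4.95, 5.32 and 5.77 from 8 g. The 19 heaviest tumors lay close together (SD 0.21), while the lightest were spread widely (SD 1.85). The median of the heaviest lay below every array median (5.84 to 6.05). Whether low signal narrowed their spread was not tested. Ocln fell by 0.24 log2 per g (95% interval −0.31 to −0.17, adjusted p = 6.65e-07). Marveld2, or tricellulin, which seals the corners where several cells meet, had levels of 5.42, 8.19 and 9.43 under 1 g and of 5.46, 5.82 and 6.87 from 8 g, with a slope of −0.15 log2 per g (−0.20 to −0.10, adjusted p = 4.09e-06). F11r, the junctional adhesion molecule JAM-A, had levels of 6.05, 9.76 and 11.12 under 1 g and of 5.71, 6.51 and 7.58 from 8 g. It fell by 0.23 log2 per g (−0.31 to −0.16, adjusted p = 8.54e-07), and 11 of the 15 lightest tumors exceeded all of the heaviest for each of these 3 genes.

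The scaffolds parted. Tjp3 (ZO-3), which is largely confined to epithelia, had levels of 6.79, 7.91 and 9.32 under 1 g and of 6.47, 6.70 and 7.60 from 8 g, and fell by 0.0931 ± 0.0175 log2 per g (SE, adjusted p = 1.46e-05). Tjp1 (ZO-1), which also serves the cell junctions of non-epithelial cells, had levels of 9.77, 10.33 and 10.61 under 1 g and of 9.76, 10.39 and 10.89 from 8 g. The 2 groups overlapped throughout, and no light tumor lay above all heavy ones. The slope of Tjp1 was −0.00343 ± 0.00764 log2 per g (SE, 95% interval −0.02 to 0.01, adjusted p = 0.761), and its level over all 126 tumors was 10.35 ± 0.26 (SD). The difference between the scaffolds within each array, Tjp3 minus Tjp1, fell by 0.0897 ± 0.0197 log2 per g (SE, two-sided permutation test of r, p = 5e-05, and of rho, p = 0.00022). Ocln minus Tjp1 fell by 0.234 ± 0.0379 log2 per g (p = 1e-05 by the same test, the smallest that 100000 resamples can give), and these were the only 2 such differences tested. Each slope is that of Tjp3 or Ocln less the nearly flat slope of Tjp1. These values therefore restate the single slopes and are not further evidence.

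**Figure D1:**
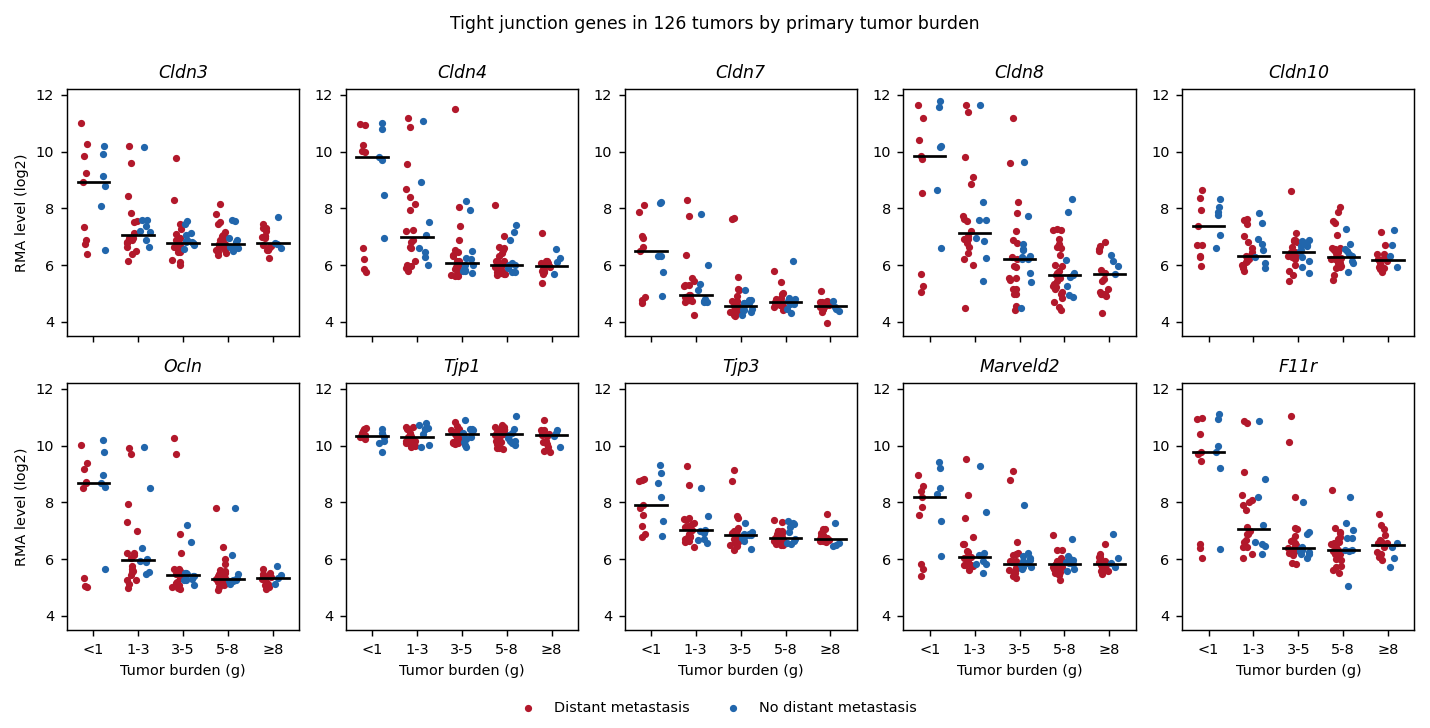
RMA level (log2) of each gene against primary tumor burden in 5 ranges (g), 1 point per tumor, red for distant metastasis and blue for no distant metastasis, with the median of each range as a black line. Medians dropped between the first ranges for 9 genes, as for Cldn4 with 9.81 under 1 g and 6.97 from 1 to under 3 g, while those of Tjp1 stayed between 10.31 and 10.41.

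The decline was steepest at the light end, where the tumors also varied most. Some genes had low levels in heavy tumors. Cldn7 had a median of 4.55 from 8 g, near the 25th percentile of all probe set means (4.48). Whether low signal flattened the later steps was not tested. The medians of the 10 genes changed by between −2.84 and −0.02 log2 between the ranges under 1 g and 1 to under 3 g. The next step, to 3 to under 5 g, was between −0.91 and 0.13, the step to 5 to under 8 g between −0.56 and 0.11, and the last between −0.14 and 0.18. The ranges held 15, 26, 32, 34 and 19 tumors. Between neighbouring ranges, the means differed by less than the larger of the 2 SDs for 10 of 10 genes at every step. The steps were thus smaller than the spread of single tumors, and whether the means of neighbouring ranges differ was not tested. The same comparison was not made over all probe sets, so it does not set these genes apart.

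The fit was therefore repeated over the 111 tumors of 1 g or more. There 6 of the 10 genes were called, all as lower, against 4.54% of all probe sets called as lower and 3.7% as higher (8.24% in all). They were Cldn8 (−0.24 ± 0.0471 log2 per g, SE, adjusted p = 0.00205), Cldn4 (−0.18 ± 0.0372, adjusted p = 0.00282), Ocln (−0.15 ± 0.0356, adjusted p = 0.0073), F11r (−0.14 ± 0.0354, adjusted p = 0.00901), Cldn7 (−0.0916 ± 0.0242, adjusted p = 0.0116) and Marveld2 (−0.0828 ± 0.0252, adjusted p = 0.0277). Tjp3 (−0.0463, adjusted p = 0.0656), Cldn3 (−0.0568, adjusted p = 0.118) and Cldn10 (−0.0293, adjusted p = 0.35) no longer passed. The 111 tumors gave Tjp1 a slope of −0.00556 (adjusted p = 0.746).

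**Figure D2:**
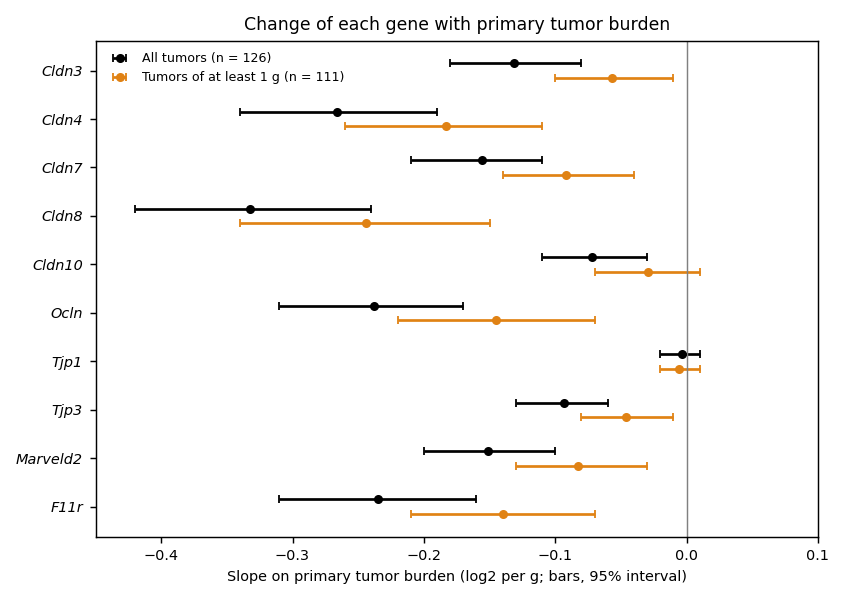
Slope of each gene on primary tumor burden (log2 per g, points) with its 95% interval (bars), over all 126 tumors in black and over the 111 tumors of 1 g or more in orange. Cldn8 lies farthest from 0 in both fits, at −0.33 and −0.24, and the intervals of Tjp1 span 0 in both.

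The tumors varied widely in the mean level of 8 epithelial markers, Epcam, Cdh1, Krt8, Krt18, Krt19, Esrp1, St14 and Spint1, none of which is among the 10 genes. For description the tumors were divided where the spread within both parts was smallest, into 21 with a high mean (9.72 ± 0.87, SD) and 105 with a low mean (6.55 ± 0.45). The values ran on across this division, with a lowest of 8.24 in the high part and a highest of 8.11 in the low part, so the parts are ranges of 1 measure and were not shown to be separate groups. The high part held 11 of the 15 tumors under 1 g, 5 of 26 from 1 to under 3 g, 3 of 32 from 3 to under 5 g, 2 of 34 from 5 to under 8 g and 0 of 19 from 8 g. It held 13 of 87 tumors with distant metastasis (14.9%) and 8 of 39 without (20.5%, two-sided Fisher's exact test, p = 0.447).

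Among the 4 light tumors with a low mean, those of mice N1130, N1457, N329 and N1444, Ocln was at 5.67, 5.02, 5.05 and 5.35, and Cldn4 at 6.94, 5.74, 5.85 and 6.59. In the other 11 light tumors Ocln lay between 8.50 and 10.18 and Cldn4 between 6.20 and 11.00, so only Cldn4 overlapped, through 1 tumor with a high mean. The 5 tumors of 3 g or more with a high mean had Ocln at 6.88, 10.26, 9.69, 7.80 and 7.80, all above the highest value of the tumors of 8 g or more. With the epithelial mean as a covariate in the burden fit, 0 of the 10 genes were called by limma, and 0.132% of all probe sets were called (0.0766% lower, 0.0553% higher). In that fit 1 of the 10, Cldn3, had an unadjusted p under 0.05 (0.04), with a positive slope of 0.032 log2 per g, against 11.6% of all probe sets.

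Relations with burden were also described within each part. In the 105 tumors with a low mean, 5 of the 10 genes had a negative Pearson's r with a p under 0.05, against 6.94% of all probe sets with a negative and 7.73% with a positive r at that level (p of Pearson's r without permutation for all probe sets). Pearson's r was −0.373 for Cldn4 (two-sided permutation test, p = 8e-05; Spearman's rho −0.328, p = 0.00063). The value was −0.357 for Cldn8 (p = 0.00022; rho −0.359, p = 0.00017) and −0.353 for Cldn7 (p = 0.00022; rho −0.361, p = 0.00022). Ocln had −0.345 (permutation p = 0.00028, with rho −0.312, p = 0.00109) and F11r −0.254 (permutation p = 0.00879, with rho −0.208, p = 0.0329). With the 2 most extreme burdens of these tumors left out, r was −0.368, −0.332, −0.363, −0.346 and −0.238 for Cldn4, Cldn8, Cldn7, Ocln and F11r. Cldn3 had an r near 0 there (r = −0.00265, permutation p = 0.978, rho −0.019), and Cldn10, Marveld2, Tjp3 and Tjp1 had r between −0.152 and −0.0821 with permutation p of 0.121 or more, although the rho of Tjp3, −0.199, had p = 0.0423. Within the 21 tumors with a high mean, r was negative for 9 of 10 genes and reached −0.441 for F11r (permutation p = 0.0426), −0.432 for Cldn8 (p = 0.0477) and −0.431 for Cldn4 (p = 0.0461). The rho of these 3 genes was −0.277 (p = 0.222), −0.349 (p = 0.121) and −0.219 (p = 0.341), while Cldn10 had rho −0.452 (p = 0.0399) and Tjp1 rho 0.44 (p = 0.048). By the p of Pearson's r without permutation, 1 of the 10 genes had a negative r with a p under 0.05 in these 21 tumors, against 5.24% of all probe sets with a negative and 5.77% with a positive r. Leaving out those 2 mice whose burdens lay farthest out gave r of −0.038 for F11r, −0.139 for Cldn8 and −0.233 for Cldn4, so these relations rest on those mice. These p-values are unadjusted over 20 relations of genes with burden.

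The decline with burden was found in males of both labels. In the 87 males with distant metastasis 8 of the 10 genes were called, all as lower, against 10.5% of all probe sets called as lower and 9.53% as higher, with Cldn10 (adjusted p = 0.0571) and Tjp1 (adjusted p = 0.616) not called. In the 39 males without it 9 of the 10 were called as lower, against 10.1% of all probe sets as lower and 11.1% as higher. Slopes were −0.23 ± 0.0441 log2 per g for Cldn4 in males with distant metastasis and −0.38 ± 0.0737 in males without, and −0.20 ± 0.0417 and −0.35 ± 0.0731 for Ocln (SE). The product of burden and distant metastasis, which tests whether the slopes differ, was called by limma for 0 of the 10 genes and for 0% of all probe sets. Among the 10, the smallest p was that of F11r, with 0.16 log2 per g (95% interval −0.01 to 0.33, unadjusted p = 0.0724, adjusted p = 0.407), and 0 of the 10 had an unadjusted p under 0.05, against 13.5% of all probe sets.

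The only label that could stand for a collection order was the mouse tag number. Within tags under 500 (18 mice), 500 to under 800 (21), 800 to under 1000 (39) and from 1000 (48), the slope of Cldn4 was −0.28, −0.42, −0.23 and −0.21 log2 per g and that of Ocln −0.25, −0.37, −0.24 and −0.17. All 9 genes other than Tjp1 had negative slopes in the 4 ranges. By limma 0, 8, 3 and 0 of the 10 were called in these ranges, all as lower, against 0%, 20.6%, 0.204% and 0% of all probe sets. In the second range 9.64% of all probe sets were called as lower and 11.0% as higher, in the third 0.14% and 0.0638%, and in each of the 4 ranges 8 of the 10 genes had an unadjusted p under 0.05, against 16.3%, 34.9%, 17.3% and 14.3% of all probe sets.

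Tumors of males with and without distant metastasis did not differ detectably in any of the 10 genes. Cldn8 had the largest difference, with a lowest, median and highest level of 4.31, 5.99 and 11.65 in the 87 males with distant metastasis, against 4.49, 6.35 and 11.78 in the 39 without. The 2 groups overlapped over nearly their whole range, and the difference was −0.50 log2 (95% interval −1.20 to 0.19, limma adjusted p = 0.985). Cldn4 was at 6.74 ± 1.49 with distant metastasis and 7.04 ± 1.57 without (SD), a difference of −0.30 (−0.87 to 0.27), and Ocln at 5.97 ± 1.38 and 6.30 ± 1.52, a difference of −0.32 (−0.86 to 0.22). Tjp1 was at 10.34 ± 0.24 with and 10.36 ± 0.29 without distant metastasis, a difference of −0.01 (−0.11 to 0.09).

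All 10 differences were negative and the smallest unadjusted p was 0.114, for Cldn10 (6.49 ± 0.68 with and 6.70 ± 0.64 without distant metastasis). Of the 10 genes 0 were called and 0 had an unadjusted p under 0.05 by limma, beside 0% of all probe sets called and 3.72% with an unadjusted p under 0.05. The methods' t-test called 0 of the 10 with 0 at an unadjusted p under 0.05, and the Wilcoxon test called 0 with 2, against 3.75% and 3.79% of all probe sets with an unadjusted p under 0.05. The median difference of the 10 genes was −0.194 log2, beside 0.00235 over all probe sets. The differences did not run one way within the tag ranges, where 9, 9, 6 and 2 of the 10 genes were lower in males with distant metastasis from the lowest range to the highest, and 1 gene in the lowest range had an unadjusted p under 0.05 (0.0203), against 3.25% of all probe sets.

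Tumor weight was taken into account by splitting at 1 g. In tumors under 1 g the difference of Cldn4 was −0.95 (95% interval −3.08 to 1.18), with means of 8.50 ± 2.32 in 9 males with distant metastasis and 9.45 ± 1.53 in 6 without (SD), although the medians, 9.98 with and 9.75 without, ran the other way. In tumors of 1 g or more it was −0.07 (−0.55 to 0.42), with medians of 6.09 and 6.23 in 78 males with and 33 without. Limma called 0 of the 10 genes in either class, with 0 at an unadjusted p under 0.05, while 4.19% of all probe sets under 1 g and 2.12% from 1 g had an unadjusted p under 0.05. The difference between the classes was called for 0 of the 10 genes and for 0.0978% of all probe sets (0.0766% lower, 0.0213% higher), and 0 of the 10 had an unadjusted p under 0.05, against 10.7% of all probe sets.

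**Figure D3:**
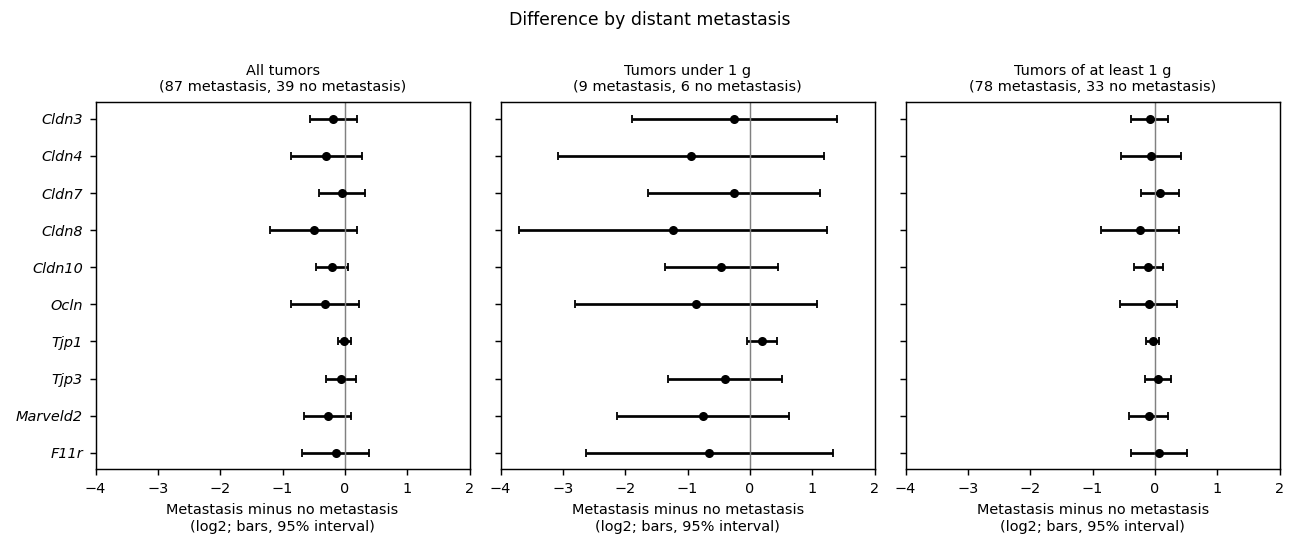
Difference of each gene between males with distant metastasis and males without (log2, points) and its 95% interval (bars), over all tumors, tumors under 1 g and tumors of 1 g or more. Every interval plotted includes 0, and that of Cldn4 under 1 g runs from −3.08 to 1.18.

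The genes varied together, except Tjp1 and in part Cldn10. Correlations were described within the high and the low range of the epithelial mean. In the 21 tumors with a high epithelial mean, the 28 pairs without Tjp1 and Cldn10 had a median Pearson's r of 0.843, from 0.513 for Cldn4 and Ocln to 0.933 for Ocln and Marveld2. In the 105 tumors with a low mean, the same 28 pairs had a median of 0.474, from 0.0429 for Cldn3 and Tjp3 to 0.776 for Cldn4 and Ocln, and all 28 were positive. The points share their arrays and normalization, and the part that this or cell content has in each r was not tested.

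Ocln and Marveld2, neighbours on chromosome 13, had r = 0.933 in the high range (two-sided permutation test, p = 1e-05; rho 0.918, p = 1e-05; r = 0.942 without the 2 tumors farthest from the median Ocln). In the low range they had r = 0.675 (permutation p = 1e-05; rho 0.566, p = 1e-05; 0.575 without 2). Cldn3 and Cldn4, neighbours on chromosome 5, had r = 0.879 in the high range (permutation p = 1e-05; rho 0.895, p = 1e-05; 0.835 without 2) and r = 0.333 in the low range (p = 0.00048; rho 0.268, p = 0.00598; 0.334 without 2). Cldn4 and Ocln, the closest pair in the low range (r = 0.776, permutation p = 1e-05, rho 0.68, p = 1e-05), were the least close of the 28 in the high range (r = 0.513, permutation p = 0.0175, rho 0.595, p = 0.00504), where r became 0.850 without the 2 tumors farthest from the median Cldn4.

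Tjp1 stood outside in both ranges. Its 9 pairs had a median r of 0.11 in the high range and of −0.0907 in the low range, where the lowest was with Marveld2 (r = −0.282, permutation p = 0.00329; rho −0.23, p = 0.0182; −0.303 without 2). With its relative Tjp3 it had r = −0.00778 in the high range (permutation p = 0.974) and −0.161 in the low range (permutation p = 0.1). Cldn10 followed the rest in the high range, with a median r of 0.416 over 8 pairs and a highest of 0.749 with Cldn4, and hardly in the low range, with a median of 0.0572. Permutation p-values of pairs are unadjusted and cover 8 named pairs in each range.

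**Figure D4:**
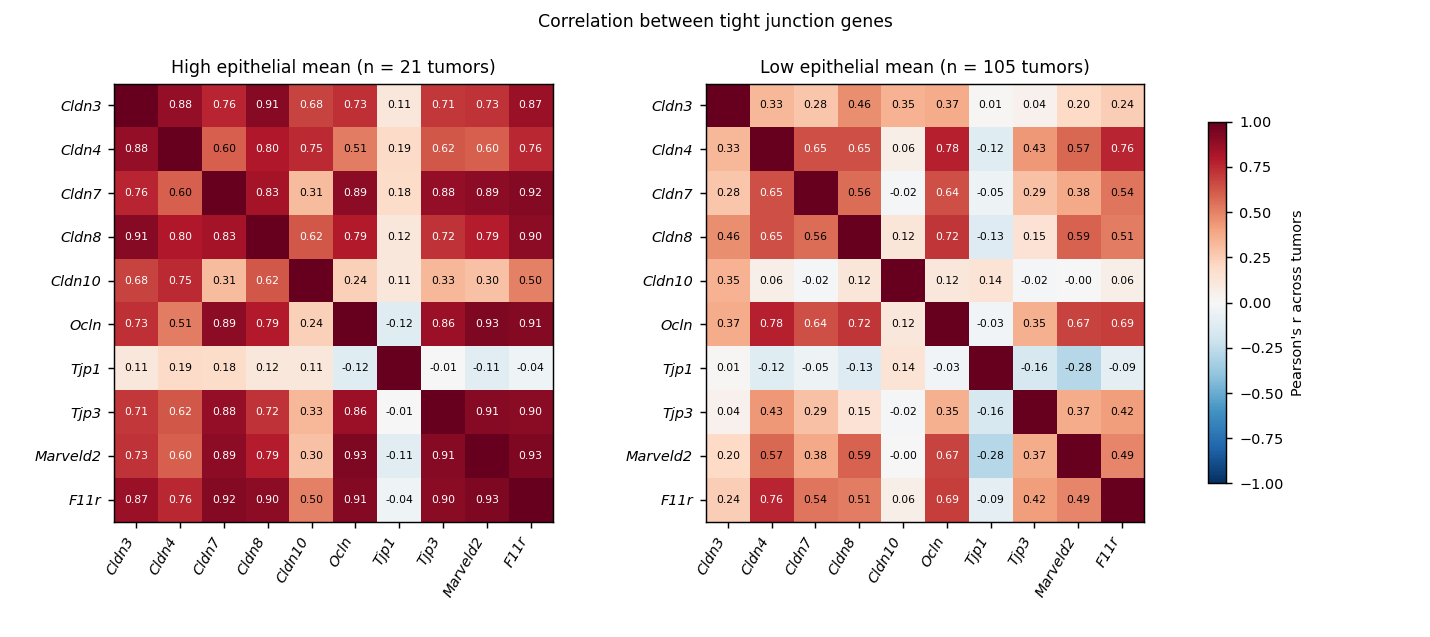
Pearson's r across tumors for each pair of the 10 genes, in the 21 tumors with a high epithelial mean (left) and the 105 with a low mean (right), on a colour scale from −1 (blue) to 1 (red). Rows of Tjp1 are pale in both panels, with medians of 0.11 and −0.0907, and those of Cldn10 are pale in the low range, with a median of 0.0572.

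In 3 tumors with a high mean some of the genes were high and others low. These tumors were singled out after their values were seen, so no test was made. The mice N891 (0.4 g), N380 (1.43 g) and N1234 (4.7 g) had epithelial means of 9.21, 8.55 and 9.69, and 2 of them had distant metastasis, N380 being the exception. Their Ocln was 8.67, 8.51 and 10.26, the last being the highest of all 126 tumors, and the other 18 tumors with a high mean had a median of 9.07. Their Cldn4 was 6.20, 7.53 and 6.35, against a median of 10.12 in the other 18, whose lowest value of 7.18 lay below that of N380 alone. Cldn10 was 5.98, 5.91 and 5.45, below every one of the other 18 (lowest 6.60), and Cldn3 was 6.90, 7.15 and 8.29 against a median of 9.42.

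The remaining members were in range in these 3 tumors. F11r was 9.47, 8.83 and 10.14, Marveld2 8.19, 7.65 and 8.79, and Tjp3 7.91, 7.52 and 8.75, each within the range of the other 18 tumors. So were Cldn7, which ran from 6.0 to 7.61, Cldn8 from 7.58 to 9.58, and Tjp1 from 10.01 to 10.33. The same 3 tumors were below the other 18 in the means of the prostate luminal markers (5.21 to 5.48, against 6.20 to 9.86), the urothelial markers (5.68 to 6.20, against 6.45 to 11.37) and the smooth muscle markers (6.83 to 7.09, against 7.37 to 11.07). Their neuroendocrine mean was 8.65 to 9.14, against 5.66 to 9.37. The part of these other cell types in the levels of Cldn4 and Cldn10 was not tested.

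**Figure D5:**
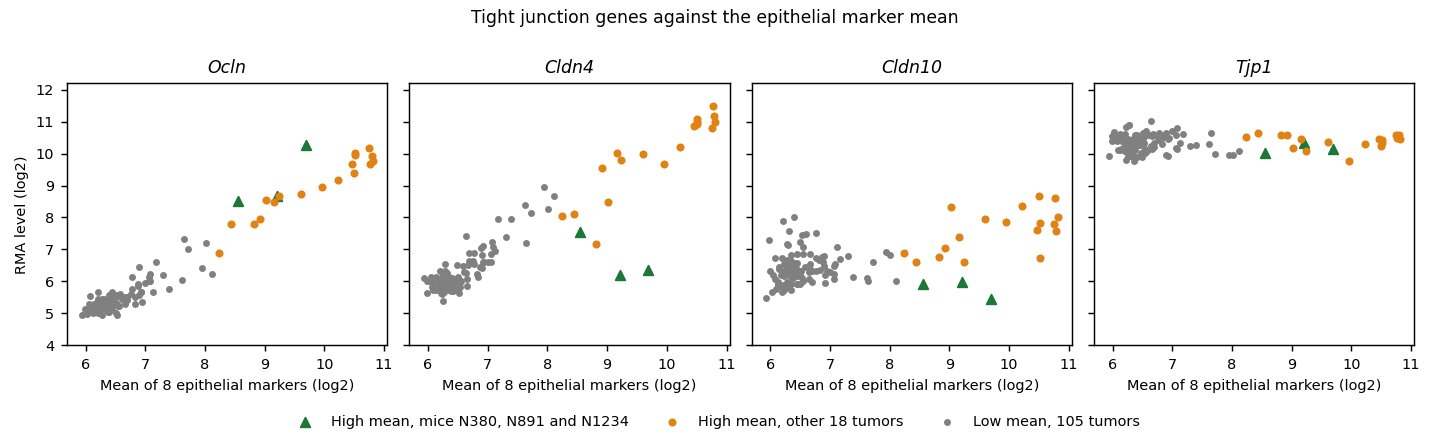
RMA level (log2) of Ocln, Cldn4, Cldn10 and Tjp1 against the mean of 8 epithelial markers (log2) in 126 tumors, with the mice N380, N891 and N1234 as green triangles, the other 18 tumors with a high mean in orange and the 105 with a low mean in grey. The 3 triangles sit among or above the orange points for Ocln (8.51 to 10.26) and low for Cldn4 (6.20 to 7.53) and Cldn10 (5.45 to 5.98), while Tjp1 lies between 9.76 and 11.03 in all tumors.

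The transcripts most like the members were other epithelial genes. Over 126 tumors and against the mean of the members' standardized levels, Pearson's r was highest for Ildr1, an angulin of tricellular junctions (0.972), Cdh1, or E-cadherin (0.966), and the membrane protease matriptase, St14 (0.963). In the low and in the high range of the epithelial mean these were 0.755 and 0.964, 0.798 and 0.965, and 0.747 and 0.899. The most opposed were Bcat1, a cytosolic branched-chain aminotransferase (−0.865), the zinc finger gene Zfp334 (−0.863) and Tmx4, a thioredoxin-related membrane protein (−0.855), with weaker values of −0.348, −0.22 and −0.293 in the low range. All of these are descriptions over tumors whose epithelial mean varied.

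Gene by gene, the closest transcript was Prss8, the protease prostasin, for Cldn3 (0.933), Tc2n for Cldn4 (0.970), and the splicing factor Esrp2 for Cldn7 (0.961) and Marveld2 (0.957). Cdh1 was closest to Cldn8 (0.913) and F11r (0.968), St14 to Ocln (0.983), Spint1, an inhibitor of matriptase, to Tjp3 (0.925) and the arginase Arg2 to Cldn10 (0.738). In the low range these were 0.494 for Prss8, 0.883 for Tc2n, 0.612 and 0.597 for Esrp2, 0.689 and 0.792 for Cdh1, 0.857 for St14, 0.578 for Spint1 and 0.383 for Arg2. Tjp1 had the weakest best partner, 9630028B13Rik with 0.58, and that value was 0.613 in the low range and 0.509 in the high range.

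Of 23 other claudin family genes tested, 4 fell, 3 rose and 16 were not called, beside 16.4% of all probe sets called as lower and 20.3% as higher, and their median slope was −0.00161 log2 per g. Some of those not called had means near the filter on low values (3.42), as Cldn17 with 3.80 and Cldn34a with 3.52. Cldn1, which the skin barrier of mice needs, fell by 0.0963 ± 0.0203 log2 per g (SE, adjusted p = 9.49e-05), and its median was 6.80 under 1 g and 6.16 from 8 g. Cldn23 fell by 0.0344 ± 0.00788 (adjusted p = 0.000294). Cldn11, known from myelin and Sertoli cells, rose by 0.0376 ± 0.0121 (adjusted p = 0.00911), and Tmem235, a claudin-like membrane protein, by 0.0213 ± 0.00639 (adjusted p = 0.00533).

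Of 13 other junction membrane proteins, 6 fell, 1 rose and 6 were not called, beside 16.4% of all probe sets called as lower and 20.3% as higher. Ildr1 fell by 0.209 ± 0.0313 log2 per g (SE, adjusted p = 4.33e-07), with a median of 8.18 under 1 g and 5.42 from 8 g, and Marveld3, the third MARVEL protein of tight junctions, fell by 0.126 ± 0.0231 (adjusted p = 1.03e-05). Jam3, a junctional adhesion molecule also present on endothelium and other cells, was the 1 that rose, by 0.0577 ± 0.0142 (adjusted p = 0.000713). Of 26 scaffold and polarity genes besides the members, 11 fell, 5 rose and 10 were not called. Llgl2, a basolateral polarity protein, fell by 0.101 ± 0.0168 (adjusted p = 1.9e-06) and the Par-6 protein Pard6b fell by 0.0871 ± 0.0192 (adjusted p = 0.000172), while its relative Pard6g rose by 0.0541 ± 0.00923 (adjusted p = 3.06e-06).

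The adherens junction, which lies just below the tight junction, showed both directions. Of 15 genes 8 fell, 5 rose and 2 were not called, beside 16.4% of all probe sets called as lower and 20.3% as higher. Cdh1 fell by 0.313 ± 0.0427 log2 per g (SE, adjusted p = 1.98e-07), with medians of 10.09 under 1 g and 5.81 from 8 g, and Epcam fell less, by 0.103 ± 0.0274 (adjusted p = 0.0017), with medians of 10.88 and 9.80. Ctnna2, the neural alpha-catenin, rose by 0.0981 ± 0.0249 (adjusted p = 0.00101) and Cdh2, or N-cadherin, by 0.0968 ± 0.0246 (adjusted p = 0.00103).

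Of 15 known regulators of epithelial genes, 10 fell, 0 rose and 5 were not called, with a median slope of −0.0877 log2 per g. The same fit called 16.4% of all probe sets as lower and 20.3% as higher. The ETS factor Ehf had medians of 8.91 under 1 g and 4.83 from 8 g and fell by 0.271 ± 0.0404 (SE, adjusted p = 4.27e-07). The splicing regulators Esrp1 and Esrp2 fell by 0.23 ± 0.0369 and 0.189 ± 0.0303 (adjusted p = 1.1e-06 and 1.08e-06), and Grhl2, a Grainyhead-like activator of epithelial junction genes, by 0.198 ± 0.032 (adjusted p = 1.26e-06). Of the other transcription factors called, the slope was −0.17 log2 per g for Elf3, −0.123 for Grhl1, −0.0925 for Klf5, −0.0435 for Ovol1 and −0.0162 for Ovol2, while Grhl3 (−0.0049, adjusted p = 0.832) was not called. Among repressors of epithelial genes, Snai2 fell by 0.0877 ± 0.0206 (adjusted p = 0.0004), and Snai1 (−0.0092, adjusted p = 0.248), Zeb1 (0.0318, adjusted p = 0.0931), Twist1 (−0.00774, adjusted p = 0.51) and Twist2 (−0.0126, adjusted p = 0.28) were not called. Over the 111 tumors of 1 g or more, fewer genes fell, namely 1 of the other claudins, 2 of the other membrane proteins, 2 of the scaffold and polarity genes, 4 of the adherens junction genes and 7 of the regulators, beside 4.54% of all probe sets called as lower.

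Markers of several cell types moved with burden beside the members. All 8 epithelial markers fell, and their mean per tumor ran from 6.20 to 10.81 under 1 g and from 6.07 to 6.92 from 8 g. Of the other lists, 5 of 6 prostate luminal genes, 3 of 3 basal, 3 of 4 urothelial, 3 of 4 seminal vesicle, 5 of 5 smooth muscle, 5 of 6 fibroblast, 3 of 7 endothelial and 2 of 5 immune genes fell, while 6 of 8 neuroendocrine and 3 of 3 proliferation genes rose. The same fit called 16.4% of all probe sets as lower and 20.3% as higher. The smooth muscle mean ran from 6.69 to 11.05 under 1 g and from 6.28 to 8.28 from 8 g, the urothelial mean from 5.76 to 9.40 and from 5.60 to 6.35, and the neuroendocrine mean from 5.66 to 9.37 and from 8.86 to 9.57. Of prostate genes, the transcription factor Hoxb13 had a median of 9.04 under 1 g and 9.18 from 8 g, while the secretory genes Msmb (9.72 and 4.61) and Pbsn (5.62 and 3.59), the source of the promoter of the transgene, were low in heavy tumors. Cdh1, Epcam and Esrp1 stand in 2 of the lists each, as do Cldn5 and Esam. The part of these other cell types in the decline of the members was not tested.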

How the data were processed

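Snap-frozen prostate tumors from 126 TRAMP × NOD/ShiLtJ F2 males were each profiled on one Affymetrix Mouse Gene 2.0 ST array. The deposited log2 values came from RMA in Partek as run by the authors (version not given in the sources used here), and they were not normalized again. By the platform annotation 23521 probe sets had 1 symbol, 1820 several and 16004 none, and the probe set with the highest mean stood for a gene.

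Probe sets with at least 1 symbol whose mean reached the 10th percentile (3.42) were tested with limma 3.58.1 in R 4.3.3, with Benjamini-Hochberg adjustment over all 23507. Code was tested on simulated data. Permutation tests were two-sided with 100000 resamples (numpy 2.4.6). Precision is limited by the number of arrays. The 10 genes and all lists were chosen with earlier results of these data known. Beside the 10, up to 2 genes with the largest called rise and 2 with the largest called fall per list, the regulators' transcription factors and the most and least correlated transcripts were named. Hoxb13, Pbsn and 3 tumors were chosen after their values were seen. Alternatives were the methods' tests, rank tests, log2 burden, other filters and normalizations, tag range as a block, covariates and leaving out mice.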

Additional observations from a re-analysis of the deposited data

Results flagged for a closer look

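Among tumors under 1 g of males without distant metastasis (n = 6), Ocln of mouse N1130 (0.25 g) was 5.67, far below the other 5, the nearest of which was 8.55 and the highest 10.18. Its gap to the nearest was 0.639 of the whole range, past Dixon's critical value of 0.625. It was the 1 such value in 20 sets tested (10 genes in 2 groups of light tumors), and chance alone gives about 1 in 20. The tumor of N1130 also had a low epithelial mean, 7.12, against 9.02 to 10.81 in the other 5. Each of the 10 genes except Cldn10 and Tjp1 was lowest in this tumor among the 6.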

How the results depend on the processing

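The count of 9 genes that fell with burden was 0 with the epithelial marker mean as a covariate (31 of all probe sets called, against 8637 without the covariate). Without tumors under 1 g it was 6 (1937 of all probe sets called), losing Cldn3, Cldn10 and Tjp3. It was 9 under the other 11 alternatives, which called between 31.1% (rank correlation) and 48.5% (log2 burden) of all probe sets. With the epithelial covariate, slopes on burden were positive for Cldn3 (0.032 log2 per g), Cldn7 (0.00818), Ocln (0.00896), Tjp3 (0.0131), Marveld2 (0.0198) and F11r (0.00809), none called. The slope of Tjp1 was 0.00112 per doubling of burden, also not called. No difference by distant metastasis was called under any of 12 alternatives. Cldn7, Tjp3 and F11r turned positive without tumors under 1 g (0.075, 0.0458 and 0.064) and with the epithelial covariate (0.165, 0.0672 and 0.166 log2), as did Cldn3 and Cldn4 with that covariate (0.0155 and 0.0185), and Cldn7 and F11r with burden as a covariate (0.0564 and 0.00661). With the epithelial covariate Cldn7 (95% interval 0.06 to 0.27, p = 0.00219) and F11r (0.02 to 0.31, p = 0.0238) had an unadjusted p under 0.05 by limma, as did 956 of all 23507 probe sets, and 0 were called. The cause was not tested. Without tumors under 1 g, 111 tumors remained, and the counts that fell and rose were 1 and 0 for other claudins, 2 and 0 for other membrane proteins, 2 and 1 for scaffolds and polarity genes, and 4 and 0 for the adherens junction. Of all probe sets, 4.54% were called as lower and 3.7% as higher in these tumors. On the log2 scale of burden, 2 other membrane proteins and 1 regulator rose, where 48.5% of all probe sets were called in either direction. Without the array of N1202, 2 other claudins fell, against 4 with it. The share of all probe sets called in either direction was 35.1% without it and 36.7% with it. The median r among the 10 genes changed by less than the spread between pairs under all 5 alternatives in each range of the epithelial mean. Averaging all probe sets of a symbol was not run, since each of the 10 genes has 1. No paired analysis was possible because the labels give each mouse its own tag number and no number shared between groups.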
